A study of Homo sapiens with 12 samples.

Results

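The genes that encode the Polycomb repressive complexes and the heterochromatin machinery were examined for regions enriched in histone H3.1 or H3.3. The list holds 42 human genes, of 19974 protein-coding genes on the autosomes and X, and a region belonged to a gene if at least 1 bp of it fell in the gene body or the 2 kb flanking it. The 42 genes were listed by name for their role, with earlier results of these data known, and the rule used no measured value. Regions came from chromatin immunoprecipitation followed by sequencing (ChIP-seq) in MCF10AER/vSrc cells, an MCF10A line (established, non-tumorigenic mammary epithelium) in which an ER/vSrc fusion makes the v-Src oncoprotein inducible. All groups shared this line, which the labels call wild type, and a medium with charcoal-stripped serum. The groups were controls and cells collected 4 h and 24 h after D-alanine, at a dose that the labels give as 10 nM and that was not checked elsewhere. The study's design states that this treatment generated reactive oxygen species in the nucleus. Each histone and time had 1 ChIP library with 1 input library. The first antibody's target is labelled H3.1/H3.2, written H3.1 from here on.

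Polycomb repressive complex 2 (PRC2) methylates lysine 27 of histone H3, and Polycomb repressive complex 1 (PRC1) adds ubiquitin to histone H2A and compacts chromatin. Constitutive heterochromatin carries methylated lysine 9 of histone H3, which is bound by the heterochromatin protein 1 (HP1) family, and methylated DNA. H3.1 is placed on DNA mainly during replication, while H3.3 is placed throughout the cell cycle and is known for its presence at active genes, at regulatory elements and in some heterochromatin.

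ChIP depth was 16837079 to 19576955 tags. The lists of H3.1 in controls and of H3.3 at 24 h, called the long lists here, stood apart from the 4 short ones. They held 44990 and 81405 regions, against 3628 to 13641 elsewhere, and 8.21% and 13.3% of their regions had no input tag, against 0.557% to 1.02%. Counts of genes were highest in these 2 lists, and counts with all lists cut to equal length are given after them. The labels list a separate input for each list, but the depths of the inputs for H3.1 at 4 h and for H3.3 in controls and at 24 h, recovered from the scaling of tags, were alike at 3 digits. Where a pair of these lists held a region with ends within 25 bp of each other, the input tags were equal at 5 of 21 (H3.1 4 h with H3.3 control), 5 of 13 (H3.1 4 h with H3.3 24 h) and 1 of 5 (H3.3 control with 24 h). A region missing from a list is a region that was not called. With 1 library per condition there is no replicate error, no test between conditions was made, and intervals cover counting error only.

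H3.3 regions were called at 30 of the 42 genes at 24 h, 12 in the controls and 3 at 4 h. H3.1 regions were called at 19 genes in the controls, 10 at 4 h, then 12 at 24 h. With 2 kb on either side of the gene body, these shares lay close to those of other genes in every list. For H3.1 they were 45.2% (exact Clopper-Pearson 95% interval 29.8% to 61.3%) in the controls, where 44.3% of all protein-coding genes held a region, 23.8% (12.1% to 39.5%) against 17.1% at 4 h and 28.6% (15.7% to 44.6%) against 28.4% at 24 h. For H3.3 they were 28.6% (15.7% to 44.6%) against 21.3% in the controls, 7.14% (1.5% to 19.5%) against 8.97% at 4 h and 71.4% (55.4% to 84.3%) against 60.2% at 24 h. All 6 intervals contained the share of all genes.

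**Figure D1:**
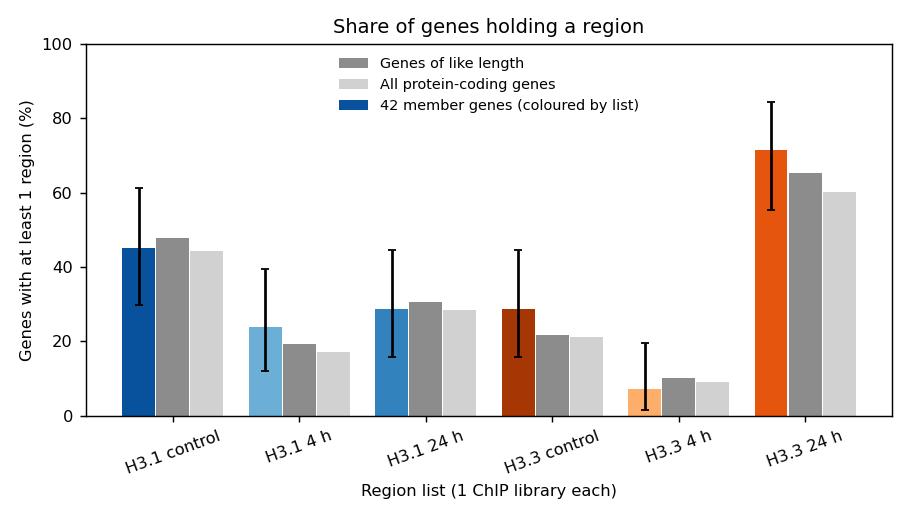
Share of genes with at least 1 region (percent) in each of the 6 region lists for the 42 genes (coloured bars, with exact Clopper-Pearson 95% intervals), genes of like length and all protein-coding genes. The coloured bars run from 7.14% in the H3.3 4 h list to 71.4% in the H3.3 24 h list, and every interval spans the grey bars beside it.

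The Polycomb and heterochromatin genes are longer than most, with a median of 43.8 kb against 24.2 kb, and longer genes have more room for a region. Each was therefore set beside the 200 other protein-coding genes nearest to it in length. Genes of like length would give 20 of 42 with an H3.1 region in the controls, 8.12 at 4 h, then 12.9 at 24 h, and 9.16, 4.21 and 27.4 for H3.3. When every list was cut to its 3614 highest-scoring regions, the counts became 5, 8 and 7 genes for H3.1 and 5, 3 and 3 for H3.3, so the 2 long lists no longer had the most genes.

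In all, 237 regions lay at these genes, and 2 genes held 32.1% of them in 13.2% of the window length. DNMT3A held 44 and EHMT1 held 32. By list, the H3.1 regions numbered 51 in the controls, 13 at 4 h, then 35 at 24 h, where genes of like length would give 64, 12.1 and 21.6. For H3.3 the numbers were 22, 4 and 112, where genes of like length would give 15, 5.07 and 109.1. Without DNMT3A and EHMT1 the H3.1 numbers were 34 in the controls against 57.5 for like length, and 16 at 24 h against 19.6, so the count above like length in the H3.1 24 h list came from those 2 genes. The H3.3 control number without them was 13 against 13.7.

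**Figure D2:**
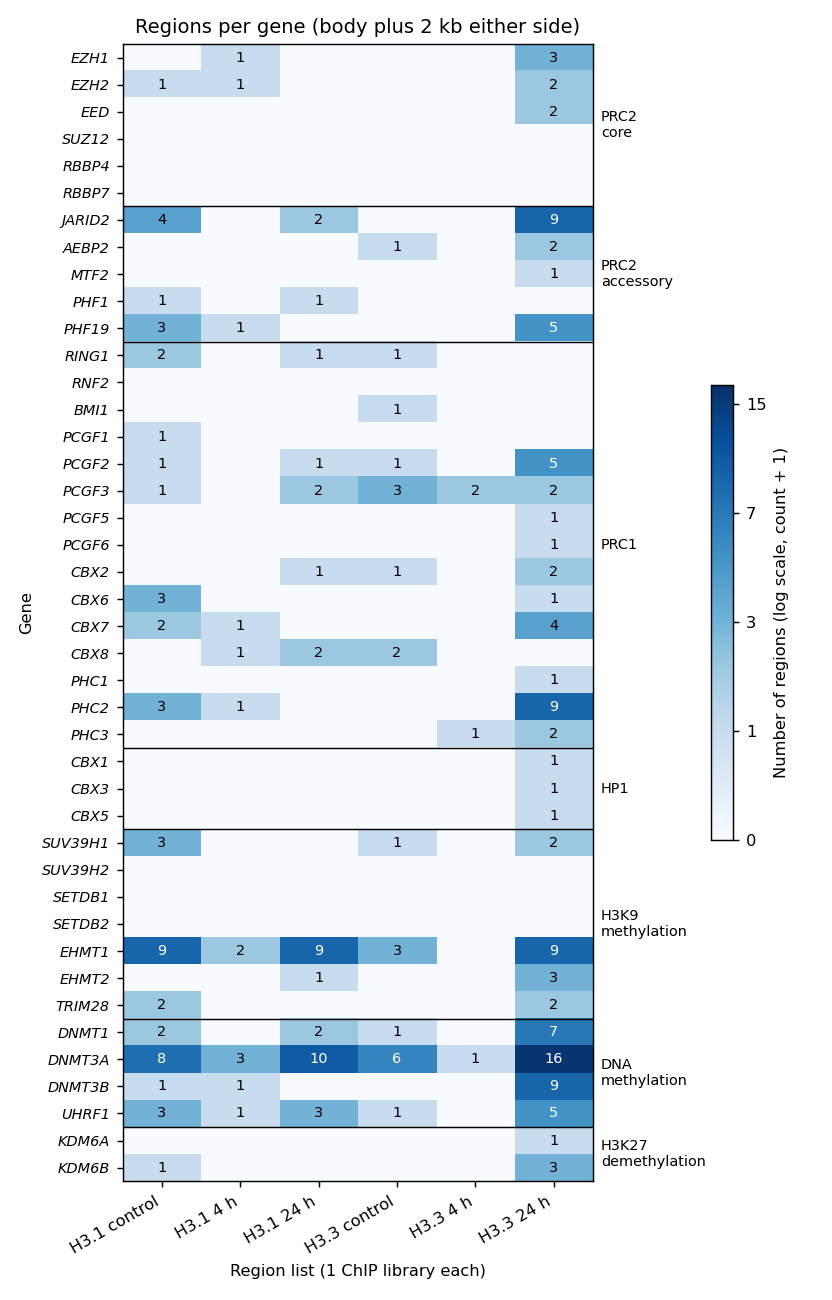
Number of regions at each of the 42 genes (rows, ordered by role) in each region list (columns, 1 ChIP library each). Colour follows the printed count on a log scale and empty cells are 0. The row of DNMT3A is filled in all 6 lists, the HP1 rows only in the H3.3 24 h list, and 7 rows are empty.

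PRC2 core genes held few regions. Over all 6 lists there were 10 regions at the 6 genes, 7 of them in the H3.3 24 h list. EZH2, the main H3K27 methyltransferase, held 1 H3.1 region in the controls, 1 at 4 h, then none at 24 h, and 2 H3.3 regions at 24 h only. All 4 lay near the far end of the gene, 70.2 to 75.9 kb from its start in a body of 76.9 kb, and none overlapped another. EZH1, the second H3K27 methyltransferase, held 1 H3.1 region at 4 h and 3 H3.3 regions at 24 h. EED, which binds methylated H3K27, held 2 H3.3 regions at 24 h, the stronger with 9.71 normalised tags (tags per 10000000 of the library) and a fold over input of 16.1 that rested on 1 input tag (exact 95% interval 2.56 to 668). SUZ12, the scaffold of the complex, and the histone-binding subunits RBBP4 and RBBP7 held no region in any list. Of these 6 genes, 1, 2 and 0 held an H3.1 region, where like length would give 2.85, 1.25 and 1.88. An H3.3 region was held by 0, 0 and 3, where like length would give 1.21, 0.6 and 4.01.

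Among the 5 accessory subunits of PRC2, JARID2, which helps recruit the complex, had the most regions. It held 4 H3.1 regions in the controls, none at 4 h, then 2 at 24 h, and H3.3 regions, 9 of them, at 24 h only. Its 200 genes of like length held means of 3.7, 0.535 and 1.005 H3.1 regions and 0.62, 0.25 and 7.45 H3.3 regions. Many of its regions lay toward the end of this gene of 276 kb. Its last 30 kb, with the 2 kb beyond, held 3 of the 4 H3.1 control regions, both H3.1 24 h regions and 6 of the 9 H3.3 24 h regions. Of the Polycomb-like subunits, PHF19 held 3 H3.1 regions in the controls, 1 at 4 h, then none at 24 h, and 5 H3.3 regions at 24 h. PHF1 held 1 H3.1 region in the controls and 1 at 24 h, and no H3.3 region. MTF2 held 1 H3.3 region at 24 h. AEBP2 held 1 H3.3 region in the controls and 2 at 24 h, and its strongest, at chr12:19482216-19483086, had 13.8 normalised tags at a fold of 22.9 that rested on 1 input tag (3.77 to 936). Of the 5 genes, 3, 1 and 2 held an H3.1 region, where like length would give 2.6, 1.09 and 1.7. An H3.3 region was held by 1, 0 and 4, where like length would give 1.2, 0.61 and 3.6.

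PRC1 genes held 63 regions in all. Of the 15 genes, 7, 3 and 5 held an H3.1 region, where like length would give 6.66, 2.49 and 4.23. An H3.3 region was held by 6, 2 and 10, where like length would give 3.15, 1.23 and 9.1. The gene of the catalytic subunit RING1 held 2 H3.1 regions in the controls and 1 at 24 h, and 1 H3.3 region in the controls. The gene of the other, RNF2, held none in any list. Of the PCGF subunits, which define the PRC1 variants, PCGF3 held a region in 5 lists. Its H3.1 regions numbered 1 in the controls, 0 at 4 h, then 2 at 24 h, and its H3.3 regions 3, 2 and 2. Of the regions at the 42 genes in the H3.3 4 h list, the one at chr4:722006-722506 had the highest score, rank 75 in the whole list, with 17.4 normalised tags and an enrichment over input of 4.41-fold (1.9 to 11.9). That region also lies in a predicted protein-coding gene, LOC124900172. PCGF2 held 5 H3.3 regions at 24 h and 1 each in the H3.1 control, H3.1 24 h and H3.3 control lists. BMI1 held 1 H3.3 region in the controls, PCGF1 1 H3.1 region in the controls, and PCGF5 and PCGF6 1 H3.3 region each at 24 h. Of the polyhomeotic subunits, PHC2 held 3 H3.1 regions in the controls, 1 at 4 h, then none at 24 h, and 9 H3.3 regions at 24 h. PHC3 held 1 H3.3 region at 4 h, then 2 at 24 h, and PHC1 held 1 at 24 h.

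The chromobox subunits, which read methylated H3K27, showed unlike patterns. CBX8 held 1 H3.1 region at 4 h, then 2 at 24 h with none in the controls, and 2 H3.3 regions in the controls with none later. It was absent from both long lists although it held a region in 3 of the 4 short ones. Only 3 of its 200 genes of like length had as many H3.3 control regions, and 9 had as many H3.1 24 h regions. CBX2, its neighbour on chromosome 17, held 1 H3.1 region at 24 h, 1 H3.3 region in the controls and 2 at 24 h. The H3.3 control region beyond the CBX2 end, at chr17:79789549-79790049, had the most normalised tags of any region at these genes, 26.3, at a fold of 4.83 (2.34 to 11.2). At CBX8 the leading H3.1 4 h region, chr17:79794733-79795358, had 22.2 normalised tags and an enrichment over input of 4.61-fold (2.12 to 11.4). CBX7 held 2 H3.1 regions in the controls and 1 at 4 h, and 4 H3.3 regions at 24 h. Its H3.1 control region at chr22:39138276-39138951 had the highest score at these genes in that list, with 17.2 normalised tags and an enrichment over input of 9.04-fold (2.83 to 46.1). CBX6 held 3 H3.1 regions in the controls and 1 H3.3 region at 24 h.

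The 3 HP1 genes, CBX1, CBX3 and CBX5, held no region in 5 lists and 1 each in the H3.3 24 h list. Genes of like length would give 1.49 of 3 with an H3.1 region in the controls and 2.02 with an H3.3 region at 24 h. The CBX3 region, chr7:26200793-26201293, had 26.1 normalised tags and an enrichment over input of 5.4-fold (2.54 to 13.2) and the highest score at these genes in that list. It ended 150 bp before the start of CBX3 and lay within 2 kb of HNRNPA2B1, an RNA-binding protein gene. The CBX5 region likewise lay before its gene, by 575 bp, and within 2 kb of HNRNPA1, another RNA-binding protein gene, with 7.66 normalised tags and an enrichment over input of 6.35-fold (1.48 to 57.2). CBX1 had its region inside the gene body, with 7.15 normalised tags and an enrichment over input of 5.93-fold (1.36 to 53.7).

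Genes for H3K9 methylation held unequal numbers. EHMT1, one of the paired euchromatic H3K9 methyltransferases, held 9 H3.1 regions in the controls, 2 at 4 h, then 9 at 24 h, and 3, 0 and 9 H3.3 regions. Of its 200 genes of like length, 2 had as many H3.1 regions at 24 h, 30 had as many in controls, and 47 had as many H3.3 regions at 24 h. Its partner EHMT2 held 1 H3.1 region at 24 h and 3 H3.3 regions at 24 h. SUV39H1, which methylates H3K9 in constitutive heterochromatin, held 3 H3.1 regions in the controls, 1 H3.3 region in the controls and 2 at 24 h. TRIM28, a corepressor that brings in SETDB1, held 2 H3.1 regions in the controls and 2 H3.3 regions at 24 h. SUV39H2, SETDB1 and SETDB2 held none in any list. Of these 7 genes, 3, 1 and 2 held an H3.1 region, where like length would give 3.31, 1.3 and 2.14. An H3.3 region was held by 2, 0 and 4, where like length would give 1.6, 0.78 and 4.51.

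All 4 genes for DNA methylation held a region in both long lists, where genes of like length would give 2 for H3.1 and 2.75 for H3.3. In the H3.1 lists at 4 h and 24 h and the H3.3 control list 3 of the 4 did, where like length would give 0.925, 1.34 and 0.9. DNMT3A, a de novo methyltransferase, was the 1 of the 42 genes with a region in all 6 lists (2.28% of all genes, not matched for length, had this). Its H3.1 regions numbered 8 in the controls, 3 at 4 h, then 10 at 24 h, and its H3.3 regions 6, 1 and 16. Among its 200 genes of like length, 1 had as many in the H3.1 24 h list, 3 in the H3.3 control list, 10 in the H3.1 4 h list, 11 in the H3.3 24 h list, 26 in the H3.3 4 h list and 23 for H3.1 in controls. DNMT3B, the other de novo enzyme, held 1 H3.1 region in the controls and 1 at 4 h, and 9 H3.3 regions at 24 h with none before. DNMT1, which copies methylation after replication, held 2, 0 and 2 H3.1 regions and 1, 0 and 7 H3.3 regions. UHRF1, which guides DNMT1 to newly copied DNA, held 3, 1 and 3 H3.1 regions and 1, 0 and 5 H3.3 regions. The H3K27 demethylase gene KDM6A held 1 H3.3 region at 24 h, where its 200 genes of like length held a mean of 8.19. KDM6B held 1 H3.1 region in the controls and 3 H3.3 regions at 24 h. Of these 2 demethylase genes, 1, 0 and 0 held an H3.1 region, where like length would give 1.17, 0.5 and 0.77. An H3.3 region was held by 0, 0 and 2, where like length would give 0.53, 0.275 and 1.46.

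By number of lists, 7 of the 42 genes held no region in any list, where 26.3% of all genes held none. Regions in at least 3 lists were present at 16 genes, 38.1%, where 30.1% of all genes had this. The shares of all genes here and in the comparisons of lists below are not matched for length. Leaving out both long lists, 20 genes held no region in the other 4 (55.2% of all genes), and 9 held one in at least 2 of the 4, where 20.2% of all genes did. Those 9 were RING1, PCGF2, CBX2 and DNMT1 with 2 lists, PCGF3, CBX8, EHMT1 and UHRF1 with 3, and DNMT3A with 4.

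How the H3.1 calls changed after D-alanine was described gene by gene. Of the 19 genes with an H3.1 region in the controls, 8 also held one at 4 h (12.9% of all genes did in both lists), 11 did not (31.4% of all genes), and EZH1 and CBX8 held one at 4 h alone (4.2% of all genes). The 8 are 42.1% of the 19, where 29.2% of all genes with a control region held one at 4 h. At 24 h, 9 of the 19 held one (19.3% of all genes did in both lists), 10 did not (25%), and CBX2, CBX8 and EHMT2 held one at 24 h alone (9.09%). The 9 are 47.4% of the 19, where 43.6% of all genes with a control region held one at 24 h. EHMT1, DNMT3A and UHRF1 held an H3.1 region at all 3 times (8.29% of all genes). DNMT1, JARID2, PHF1, RING1, PCGF2 and PCGF3 held one in the controls and at 24 h and none at 4 h (11% of all genes). The treated H3.1 lists shared 4 genes (9.65% of all genes), with 6 at 4 h alone (7.47%) and 8 at 24 h alone (18.8%).

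For H3.3, only PCGF3 and DNMT3A of the 12 control genes also held a region at 4 h (4.79% of all genes did in both lists). These are 16.7% of the 12, where 22.5% of all genes with a control region held one at 4 h. The other 10 control genes did not (16.5% of all genes), and PHC3 held one at 4 h and not in the controls (4.18%). All 3 of the 4 h genes also held one at 24 h (7.53% of all genes in both lists, 1.44% at 4 h alone), and 27 did at 24 h alone (52.6%). Of all genes with an H3.3 region at 4 h, 84% also held one at 24 h. At 24 h, 9 of the 12 control genes held one (16.8% of all genes in both lists) and 21 others did so without a control region (43.4% of all genes). The 9 are 75% of the 12, where 78.8% of all genes with a control region held one at 24 h. RING1, BMI1 and CBX8 held an H3.3 region in the controls and none at 24 h (4.5% of all genes). Adding PCGF3, which went from 3 regions to 2, these were the 4 genes with fewer H3.3 regions at 24 h than in the controls (5.91% of all genes). From the controls to 24 h, 10 of the 42 genes had fewer H3.1 and more H3.3 regions (29.5% of all genes did), namely EZH2, JARID2, PHF19, CBX6, CBX7, PHC2, SUV39H1, TRIM28, DNMT3B and KDM6B. The reverse, more H3.1 and fewer H3.3 regions, was found at PCGF3 and CBX8 (1.76% of all genes).

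The histones were then compared with each other at each time. In the controls 8 genes held regions of both (15.3% of all genes), 11 of H3.1 alone (29%) and AEBP2, BMI1, CBX2 and CBX8 of H3.3 alone (5.96%). At 4 h DNMT3A alone held both (4.2% of all genes), 9 genes held H3.1 alone (12.9%), and PCGF3 and PHC3 held H3.3 alone (4.77%). By 24 h 9 genes held both (22.2% of all genes), PHF1, RING1 and CBX8 held H3.1 alone (6.21%) and 21 genes held H3.3 alone (38%). The long lists shared 16 genes (38% of all genes), with 3 in the H3.1 list alone (6.33%) and 14 in the H3.3 list alone (22.2%). The 16 are 84.2% of the H3.1 control genes and 53.3% of the H3.3 24 h genes, where the same shares for all genes were 85.7% and 63.1%. The H3.1 24 h list and the H3.3 list of controls, both with 12 of the 42 genes, shared 9 (12% of all genes), with 3 in each alone (16.4% and 9.28%). The 9 are 75% of each list, and for all genes the shares were 42.1% and 56.3%.

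By number, overlaps of the regions themselves were most frequent between the long lists. Of the 16 genes found in both, 7 held regions that overlapped (22.5% of all genes, or 59.3% of all those in both), namely DNMT3A, JARID2, PHF19, PHC2, CBX7, TRIM28 and DNMT3B. Of the 51 H3.1 control regions, 1 overlapped an H3.1 4 h region (1.51% of all such regions did), 2 overlapped an H3.1 24 h region (2.04%) and 12 overlapped an H3.3 24 h region. The last is 23.5% (12.8% to 37.5%), where 33.8% of all H3.1 control regions did so. None of the 22 H3.3 control regions overlapped an H3.3 region at 4 h or 24 h, where 2.26% and 3.99% of all such regions did. Across the histones, 3 of these 22 overlapped an H3.1 4 h region, where 4.6% of all did, and 3 overlapped an H3.1 24 h region, where 8.33% of all did. The first 3 lay at CBX8 and DNMT3A and the second 3 at CBX8, DNMT3A and RING1.

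Within DNMT3A the regions recurred in certain stretches. The gene lies at chr2:25227874-25342590 on the minus strand. Some 9.24 kb, from 46.9 to 56.2 kb after the gene start, held a region from each of the 6 lists, 7 regions in all. This stretch was chosen after its values were seen. Inside it an H3.1 4 h region with 10.2 normalised tags, at a fold of 4.26 (1.4 to 17.3), and an H3.3 control region with 11.7, at a fold of 4.86 (1.64 to 19.5), shared 473 bp. Just outside it, at 45.2 kb, another H3.3 control region, with 16.8 normalised tags, contained an H3.1 4 h region with 7.4. Near the start of the gene, an H3.1 control, an H3.1 24 h and an H3.3 24 h region overlapped one another, with 12.9, 14.8 and 12.3 normalised tags. At 94.7 kb an H3.3 control region with 21.2 normalised tags and an H3.1 24 h region with 14.3 shared 498 bp. The strongest DNMT3A regions by tags stood elsewhere, with 24.7 near the end of the gene for H3.1 in controls and 24.4 at 31.2 kb for H3.1 at 24 h. The H3.3 24 h list gave DNMT3A its highest fold, 28.8, on 34 ChIP tags and 1 input tag (4.83 to 1170). At EHMT1 only 2 overlaps were found, 1 between the H3.1 control and 4 h lists 178 kb from the gene start, and 1 between the H3.1 control and 24 h lists near 48.5 kb.

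**Figure D3:**
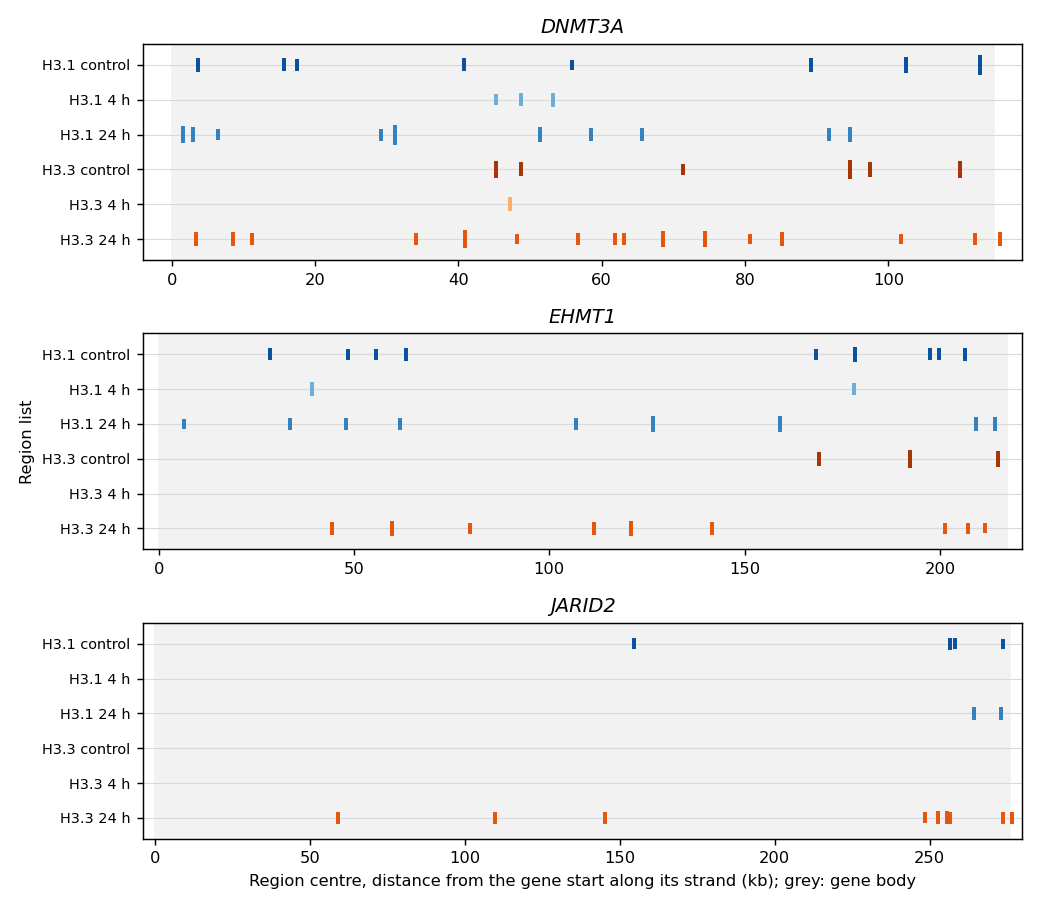
Centre of every region at DNMT3A, EHMT1 and JARID2, as distance from the gene start along its strand in kb, with 1 row per region list and mark height following the normalised ChIP tags. DNMT3A marks from all 6 lists lie between 46.9 and 56.2 kb, EHMT1 has none in the H3.3 4 h row, and 6 of the 9 JARID2 marks in the H3.3 24 h row lie in the last 30 kb or just beyond.

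Most regions lay inside gene bodies, away from gene ends. Over 2 kb from both ends of the gene and from its listed RefSeq starts were 37 of 51, 10 of 13 and 27 of 35 H3.1 regions and 14 of 22, 4 of 4 and 82 of 112 H3.3 regions. Within 2 kb of a listed start were 6, 1 and 3 H3.1 regions and 2, 0 and 10 H3.3 regions. Shares for all genes at these placements are not given here, so these counts describe position only. For genes with a known strand, 20 of 44 H3.1 control regions within the body lay in the third of it nearest the gene end, where 41.2% of those of all genes did. At 24 h the H3.3 number was 36 of 95, where 38% of all did.

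Promoters were read from RefSeq windows of 300 bases, 250 before and 50 after each start, on the GRCh38.p14 assembly. Of the 42 genes, 39 had one, and CBX2, CBX8 and TRIM28 were not matched. A region touched a promoter window at 4 genes. KDM6B was touched by an H3.1 control region, where 3.27% of all genes with a window were, and CBX3, PCGF2 and SUV39H1 by H3.3 24 h regions, where 5.69% were. In the 4 short lists, H3.1 before H3.3 and by time, no window was touched, where 0.987%, 3.23%, 1.88% and 0.247% of all were. The windows of these genes are rich in CG pairs, the letters C then G, which read the same on both strands. Their 62 windows had a median of 29.5 CG pairs, and 46 of them, 74.2%, had at least 20, against 52.9% of all windows. The 4 windows that were touched had 2, 2, 7 and 19, and none of the 46 was touched. For all genes in the H3.3 24 h list, 7.9% of windows under 20 CG pairs and 1.53% of those with at least 20 were touched, and 4.71% and 0.692% for H3.1 in controls. For H3.1 at 24 h the order was the other way, 1.87% and 3.04%. The remaining lists gave 0.681% and 0.855% (H3.1 at 4 h), 1.36% and 1.56% (H3.3 in controls) and 0.211% and 0.214% (H3.3 at 4 h).

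The 4 touched windows are printed 5′ to 3′ along the gene's strand, with the bases inside the called region in capitals, because they are the promoters where a region was found. The BMI1 window, the one with the most CG pairs, 65, is shown for contrast. No region touched it, and its capitals mark the CG pairs.
CBX3, chr7:26201193-26201492, plus strand: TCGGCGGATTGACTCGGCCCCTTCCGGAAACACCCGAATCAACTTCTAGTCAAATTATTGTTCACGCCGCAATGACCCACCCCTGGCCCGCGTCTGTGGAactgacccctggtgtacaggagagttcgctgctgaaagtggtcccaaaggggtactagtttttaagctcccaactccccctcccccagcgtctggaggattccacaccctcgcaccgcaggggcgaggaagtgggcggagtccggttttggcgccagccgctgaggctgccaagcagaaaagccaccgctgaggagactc
PCGF2, chr17:38746579-38746878, minus strand: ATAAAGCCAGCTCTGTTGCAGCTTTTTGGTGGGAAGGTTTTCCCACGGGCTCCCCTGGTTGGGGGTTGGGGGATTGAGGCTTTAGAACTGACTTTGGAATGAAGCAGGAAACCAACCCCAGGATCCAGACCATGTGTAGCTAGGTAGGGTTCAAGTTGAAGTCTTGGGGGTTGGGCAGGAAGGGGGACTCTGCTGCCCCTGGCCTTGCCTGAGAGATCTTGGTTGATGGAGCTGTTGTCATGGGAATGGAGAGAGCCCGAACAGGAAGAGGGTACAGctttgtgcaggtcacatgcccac
SUV39H1, chrX:48695304-48695603, plus strand: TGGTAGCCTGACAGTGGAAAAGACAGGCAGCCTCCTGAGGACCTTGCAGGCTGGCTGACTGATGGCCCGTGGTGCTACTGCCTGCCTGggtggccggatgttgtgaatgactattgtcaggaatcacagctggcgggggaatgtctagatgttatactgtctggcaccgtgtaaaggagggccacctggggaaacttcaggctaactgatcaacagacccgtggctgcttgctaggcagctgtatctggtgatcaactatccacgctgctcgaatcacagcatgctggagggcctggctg
KDM6B, chr17:7839667-7839966, plus strand: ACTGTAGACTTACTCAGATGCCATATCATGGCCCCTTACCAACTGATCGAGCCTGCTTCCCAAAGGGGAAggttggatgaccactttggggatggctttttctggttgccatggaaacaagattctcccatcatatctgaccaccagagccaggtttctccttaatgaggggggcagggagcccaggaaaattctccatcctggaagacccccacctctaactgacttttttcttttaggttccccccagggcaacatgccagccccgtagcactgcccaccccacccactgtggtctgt
BMI1, chr10:22321706-22322005, plus strand: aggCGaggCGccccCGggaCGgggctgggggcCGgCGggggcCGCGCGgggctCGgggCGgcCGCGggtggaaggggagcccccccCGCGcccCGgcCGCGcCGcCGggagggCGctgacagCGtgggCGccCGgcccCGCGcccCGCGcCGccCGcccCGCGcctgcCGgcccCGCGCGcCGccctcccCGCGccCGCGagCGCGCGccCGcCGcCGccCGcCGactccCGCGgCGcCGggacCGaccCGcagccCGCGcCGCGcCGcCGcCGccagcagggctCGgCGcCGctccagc
The H3.3 24 h region covered 100 bases at the 5′ end of the CBX3 window and ended 150 bases before its start. At PCGF2 the region took in 277 of 300 bases, including the start, with 8.17 normalised tags and an enrichment over input of 6.77-fold (1.59 to 60.7). The PCGF2 window belongs to a start inside the gene, and so does the KDM6B window, of which the H3.1 control region took in 70 bases with 8.58 normalised tags and an enrichment over input of 4.52-fold (1.29 to 24.2). At SUV39H1 the region covered 88 bases, with 7.15 normalised tags and an enrichment over input of 5.93-fold (1.36 to 53.7).

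**Figure D4:**
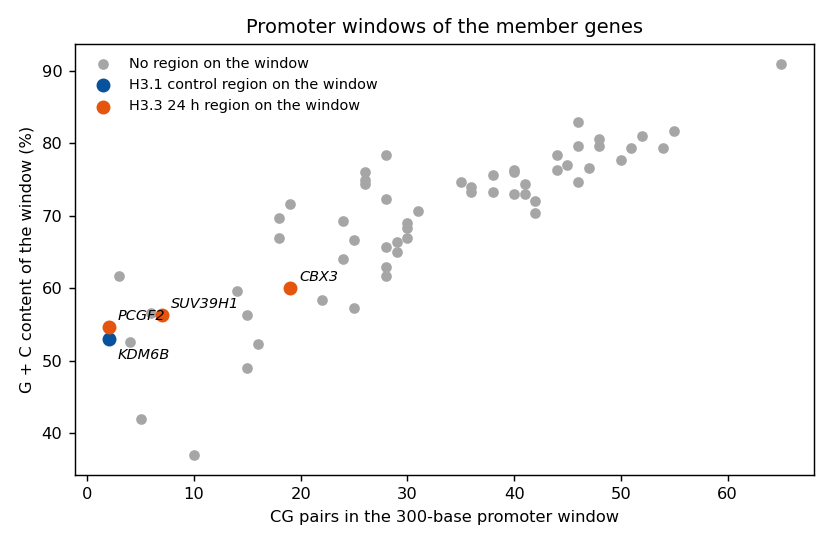
G + C content (percent) against the number of CG pairs for the 62 promoter windows of 39 genes. The 4 coloured points, windows touched by a region of either long list, have 2, 2, 7 and 19 CG pairs, and all windows with at least 20 are grey.

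Tags and folds at these genes resembled those of each whole list. Median normalised tags were 9.11, 10.2 and 10.7 for H3.1 and 12.8, 9.54 and 9.19 for H3.3, against 9.11, 10.2, 10.1, 11.2, 8.99 and 9.19 over all regions. Median folds over input were 6.78, 4.42 and 4.57 for H3.1 and 4.63, 4.7 and 6.53 for H3.3, against 6.21, 4.73, 4.74, 4.63, 4.98 and 7.34 over all regions. In the 4 short lists the folds sat close to the 4 that the caller requires, and the largest at any of the genes was 10.2, at UHRF1 in the H3.1 24 h list, on 19 ChIP and 2 input tags (2.47 to 90.6). The high folds of the long lists rested on few input tags. At these genes 3 regions of H3.1 in controls and 10 of H3.3 at 24 h had no input tag, and of these the H3.3 24 h region at chr2:25257127-25257756 in DNMT3A had 11.7 normalised tags, at least 6.49-fold over a floor of 3 input counts.

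**Figure D5:**
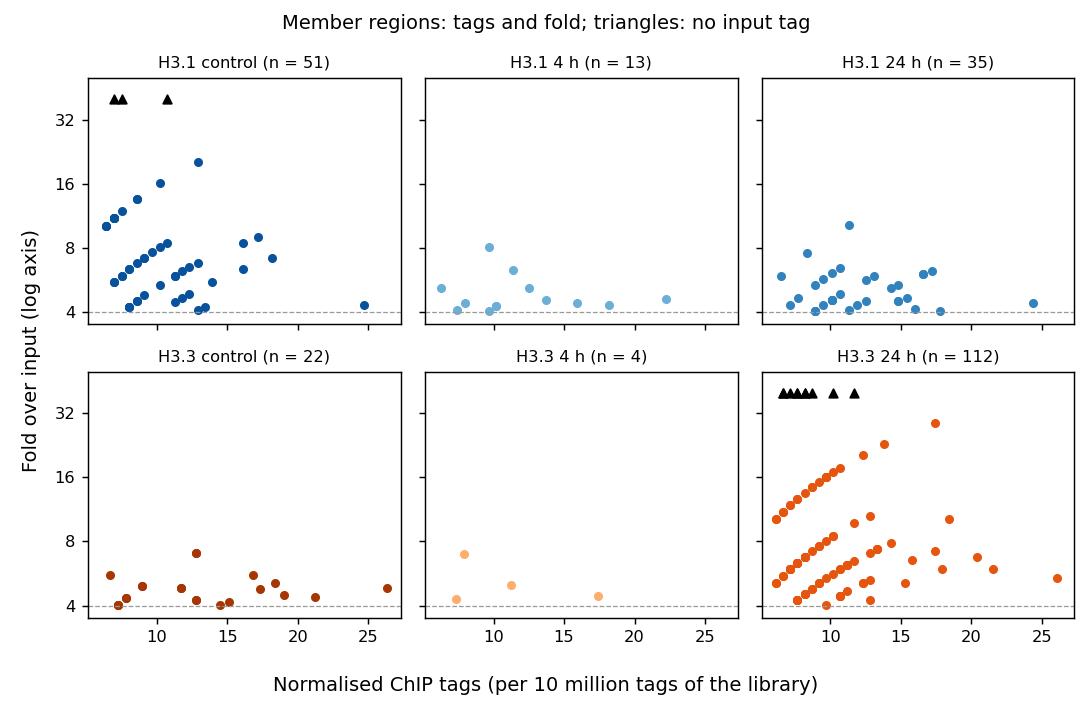
Fold over input (log axis) against normalised ChIP tags (per 10000000 tags of the library) for every region at the 42 genes, 1 panel per region list. Circles are regions with input tags, black triangles at the top are the 3 and 10 regions of the long lists with none and have no fold, and the dashed line is the required fold of 4. The short lists stay near the line, while the panels of both long lists reach 20.3 and 28.8.

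For the wider pathway, 51 further genes (other PRC1 and PRC2 partners, HUSH and MBD proteins, TET enzymes and histone demethylases) were counted in the same way. With an H3.1 region there were 26 in the controls, 15 at 4 h, then 20 at 24 h, and with an H3.3 region 11, 3 and 38. Genes of like length would give 26.3, 10.9 and 17.9, and 12.9, 6.03 and 35.9. KDM4B, an H3K9 demethylase gene of 184486 bp, had the most regions of the 51, 57, of which 20 were in the H3.1 24 h list. It was named for that count, and no number for genes of its length is given. It held a region in all 6 lists, as 2.28% of all genes did. ASXL3, ATF7IP, MBD2, RYBP, TET2, USP16, YAF2 and YY1 held none in any list.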

How the data were processed

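H3.1 and H3.3 ChIP-seq region lists of 6 libraries from MCF10AER/vSrc cells were used, 1 per histone and condition, each with 1 input. The labels list 12 samples and reads of 50 bases. The submitters' processing notes name HOMER 4.11.1, Bowtie2 2.4.1 and cutadapt 3.7 and the hg38 build. Regions were called by library in the histone style of HOMER, per the file headers, with peaks of 500 bp at least 1000 bp apart, at most 1 tag per bp, a fold of 4 over input and a Poisson p-value of 1e-04. The deposited signal is tags per 10000000 ChIP tags. The deposited score is the caller's own and is not adjusted for depth. The deposited fold is the ratio of ChIP to input tags, and the authors' p-value per region was not used to rank. Per the file headers, scaling brought the input to the ChIP depth for H3.1 at 24 h, and the ChIP to the input depth for the others. An input value of 0.5 stands for 0 tags. Regions were not called on pooled samples.

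The 42 genes, the 51 further genes and the alternatives were chosen with earlier results of these data known. All 42 were found in the RefSeq gene table (GRCh38.p14), and 39 in its promoter table, which gave strand and starts. Genes of like length are the 200 other protein-coding genes nearest in length, and the number given is the sum over the genes of their share or mean. Exon structure was not used here. Every gene is accounted for, and regions are named by the highest score and fold in each list and by number of lists. Fold intervals are exact conditional binomial 95% intervals and make no allowance for the calling. The floor for 0 input tags is 3 counts per region. Counting was tested on simulated regions. Python 3.11.15, pandas 2.3.3, numpy 2.4.6, scipy 1.17.1 and matplotlib 3.10.9 were used. The alternatives were the window, fold minimum, overlap, list length, distance to gene ends or starts, the like-length rule and regions at no other gene.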

Additional observations from a re-analysis of the deposited data

Results flagged for a closer look

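From the controls to 24 h after D-alanine the counts of the 2 histones went opposite ways. The number of the 42 genes with an H3.1 region changed by -7 and the number with an H3.3 region by 18. The number of regions at these genes changed by -16 for H3.1 and by 90 for H3.3. Other genes moved the same way. Genes of like length would go from 20 to 12.9 of 42 with an H3.1 region and from 9.16 to 27.4 for H3.3. Their regions would go from 64 to 21.6 for H3.1 and from 15 to 109.1 for H3.3. Among all genes the share with a region went from 44.3% to 28.4% for H3.1 and from 21.3% to 60.2% for H3.3. The changes at the 42 genes were flagged because the 2 histones moved in opposite directions between their only control and 24 h libraries. The difference was not tested, since each condition has 1 library. The lists changed length in the same directions, from 44990 to 13641 regions for H3.1 and from 9867 to 81405 for H3.3, and with every list cut to its 3614 highest-scoring regions both directions turned. The regions at these genes then numbered 6 in the controls and 11 at 24 h for H3.1, and 9 and 3 for H3.3, at 5 and 7 genes for H3.1 and 5 and 3 for H3.3. In the full lists both histones moved alike across the 4 h libraries. Genes with a region fell from 19 to 10 for H3.1 and from 12 to 3 for H3.3. From 4 h to 24 h both counts rose, to 12 and 30. Like length would give 8.12 and 4.21 at 4 h. In the full lists the number of H3.1 regions did not fall from the controls to 24 h at several genes. It was 8 and 10 at DNMT3A, 9 and 9 at EHMT1, 3 and 3 at UHRF1 and 2 and 2 at DNMT1. It was 1 and 1 at PHF1 and PCGF2 and 1 and 2 at PCGF3, and CBX2, CBX8 and EHMT2 held regions at 24 h alone. It fell at JARID2, at RING1 and at the 10 genes with an H3.1 region in the controls and none at 24 h. The same shares for all genes are not given here.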

How the results depend on the processing

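No paired analysis was possible because each group has 1 library and no test was made. One library per condition, folds near the caller's minimum and 0 to 10 input tags per region limit precision, and a missing call is not absence. Numbers follow the order H3.1 control, 4 h, 24 h, then H3.3 control, 4 h, 24 h. Counts outside 1.5 times the reported value, or all counts where 6 are given, were as follows. Genes with a region numbered 13, 2, 5, 2, 1 and 22 at a fold of at least 6 and 11, 1, 1, 0, 0 and 14 at a fold of at least 8. Like length gave 14.1, 2.13, 3.9, 2.37, 0.985 and 22.8 at 6 and 11.3, 0.735, 1.4, 0.81, 0.33 and 19.3 at 8. With 10 kb on either side, genes with a region numbered 26, 14, 15, 15, 3 and 38. Like length gave 23.8, 10.3, 16.1, 11.7, 5.4 and 31.4 for that window. With equal list lengths they were 5, 8, 7, 5, 3 and 3, where like length gave 3.65, 4.21, 4.83, 4.49, 4.21 and 3.41. Within 2 kb of a gene end they were 8, 2, 5, 6, 0 and 19, and within 2 kb of a RefSeq start 5, 1, 1, 1, 0 and 9. Numbers for other genes are not given for these placements, nor for the genes in both lists below. Those counts therefore show the effect of the setting only and no difference from other genes. Regions numbered 31, 2, 7, 2, 1 and 69 at a fold of 6 and 20, 1, 1, 0, 0 and 39 at 8. With equal lengths they were 6 and 11 for H3.1 and 9 and 3 for H3.3, each in controls and at 24 h. Within 2 kb of a gene end regions numbered 11, 2, 6, 8, 0 and 25, and of a RefSeq start 6, 1, 3, 2, 0 and 10. Leaving out regions at another protein-coding gene left 2 in the H3.3 4 h list, an alternative chosen after seeing the data. Genes in both lists at folds of 6 and 8 numbered 2 and 1 for H3.1 control with 4 h, 2 and 0 for H3.1 control with 24 h, 1 and 0 for H3.1 4 h with 24 h, 0 and 0 for H3.3 control with 4 h, 2 and 0 for H3.3 control with 24 h, and 1 and 0 for H3.3 4 h with 24 h. Between histones they were 1 and 0 in the controls, 0 and 0 at 4 h and 4 and 0 at 24 h. With equal lengths they were 3, 3, 1, 0 and 0 for H3.1 control with 4 h and with 24 h, H3.3 control with 4 h and with 24 h, and H3.3 4 h with 24 h, and 1 and 0 between histones in the controls and at 24 h. With 10 kb on either side the shared genes were 8 for H3.1 4 h with 24 h, 14 for H3.3 control with 24 h and 14 between histones at 24 h. Fewer regions pass a higher fold, a shorter list or a narrower place by construction. Of the other results, the gene body alone, 50% of the region inside, 50 genes of like length and 4 length classes moved none by over 1.5 times.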
